A study of Mus musculus with 4 samples.

Results

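The transcripts described here are those of p53 and of the genes closest to it in its control loop: Mdm2, Mdm4, Ccng1, Ppm1d, Trp53inp1, Phlda3 and Zmat3. They were chosen by name, 8 genes in all, with earlier results of these data known. Each was read from the array probe sets whose platform annotation gave that gene symbol alone. Of the 8 listed genes, 7 were measured, among 22180 genes on the arrays. Trp53 itself had no probe set under its own symbol in the annotation used, so the level of the p53 transcript was not analysed here. The 7 genes had 1 such probe set each, and all 7 passed the filter on low values.

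The samples were embryoid bodies, aggregates in which embryonic stem cells start to differentiate, grown from the mouse embryonic stem cell line R1. Feeder-depleted cells were kept for 18 h without LIF in EB medium only, in DMSO, in GSK-J5 or in GSK-J4, both compounds at 1.88 µM. GSK-J4 is an ethyl ester that cells convert to GSK-J1, an inhibitor of the KDM6 demethylases of histone H3. GSK-J5 is the ethyl ester of GSK-J2, an isomer of GSK-J1 that differs in the pyridine group and inhibits these enzymes poorly. The study asks whether blocking KDM6 during differentiation sets off a DNA damage response. There was 1 array for each treatment, 4 in all, so no difference below has a replicate check, and differences are described by size without a p-value; a limma fit that takes the 3 controls as replicates of one another was run only as an alternative. All 4 arrays came from 1 cell line and 1 time point.

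p53 is a transcription factor that stress stabilises, and it halts the cell cycle, promotes repair or triggers cell death. It also switches on genes that act back on it. Mdm2 is a ubiquitin ligase that sends p53 to the proteasome, and Mdm4 is its paralogue, which binds and masks the activation domain of p53 and pairs with Mdm2. Ccng1 encodes cyclin G1, which brings a phosphatase to Mdm2, and Ppm1d encodes WIP1, a phosphatase that removes damage-induced phosphates from p53 and from the checkpoint kinases. Not every gene of the group restrains p53: Trp53inp1 encodes a nuclear protein that helps kinases phosphorylate p53, Phlda3 encodes a pleckstrin homology protein that blocks AKT, and Zmat3 encodes a zinc finger protein that binds RNA.

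p53 binds DNA at a pair of adjoining half-sites, each of which reads purines, a C, A or T bases, a G and pyrimidines. RefSeq promoter windows of build GRCm38.p6, from 250 bases before to 50 after an annotated start, were found by symbol for 5 of the 7 measured genes; Trp53inp1 and Zmat3 had none. The p53 consensus half-site, 10 bases long and the same on both strands, occurred in the windows of 3 of the 5: Mdm2, Ccng1 and Ppm1d. Counted by gene in the same way, 2582 of the 27025 genes with a window (9.55%) had a half-site; by window the share was 8.36% of 32851. No half-site was in either of the windows of Mdm4 or in that of Phlda3. The 3 stretches are shown because they are the matches near the starts of the measured genes. Each lies on the gene's strand, with the half-site in capitals, or in Ccng1 the pair of adjoining half-sites, 20 bases long, of which the first departs from the consensus by 1 base.
Ccng1, chr11:40755442-40755501, minus strand: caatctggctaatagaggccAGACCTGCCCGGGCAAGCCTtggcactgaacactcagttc
Mdm2, chr10:117710910-117710969, minus strand: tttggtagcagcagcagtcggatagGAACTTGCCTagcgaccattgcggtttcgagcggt
Ppm1d, chr11:85311097-85311156, plus strand: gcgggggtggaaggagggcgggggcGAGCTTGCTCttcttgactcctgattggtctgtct

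The pair in Ccng1 begins 195 bases before the annotated start. A pair with at most 1 departure was in 29 of the 32851 windows, 0.0883%, and Ccng1 was the only one of the 5 genes to have it. In Mdm2 the half-site begins 186 bases before the start and in Ppm1d 132 bases before it. The best known p53 sites of Mdm2 lie in its first intron, which this window does not cover. A match is a description of letters only, and binding was not measured.

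All 7 transcripts read higher with GSK-J4 than with medium, DMSO or GSK-J5. Values are log2 expression after RMA, and the distance from the GSK-J4 array to the nearest of the 3 controls is called the margin. A gene was counted as higher when its margin was at least 1.5-fold, 0.585 on the log2 scale. By that rule 5 of the 7 were higher: Trp53inp1, Phlda3, Mdm4, Mdm2 and Ccng1. Among all 13314 genes above the filter the rule was met by 2.21%, and 0.841% were lower by as much, including 0 of the 7. By any amount, 7 of 7 lay above all controls, against 38.0% of all genes. The 7 were chosen with earlier results of these arrays known, so these counts are no independent evidence.

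**Figure D1:**
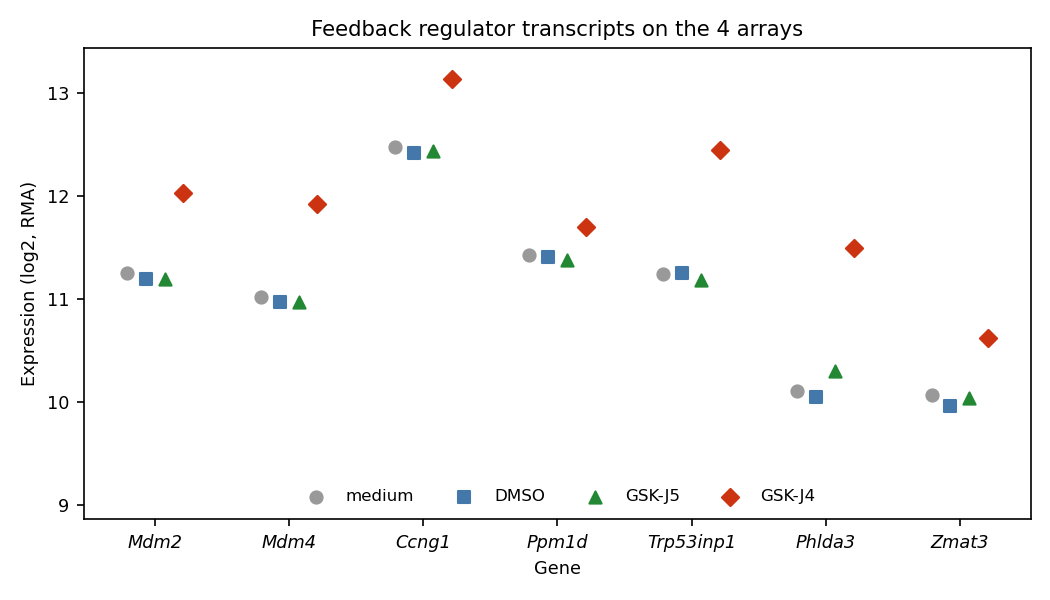
Log2 expression (RMA) of the 7 measured genes, 1 point for each array, with medium, DMSO, GSK-J5 and GSK-J4 marked by colour and shape. The GSK-J4 point is the highest for each gene, from 10.62 for Zmat3 to 13.14 for Ccng1, and the control points of each gene lie within 0.05 to 0.25 of one another; levels of different genes come from different probes and are not comparable.

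Mdm2 read 11.25 in medium, 11.19 in DMSO, 11.19 in GSK-J5 and 12.03 in GSK-J4. Its margin was 0.78, which is 1.72-fold, and 1.11% of all genes had a margin as high. Its paralogue Mdm4 read 11.02 in medium, 10.97 in DMSO, 10.97 in GSK-J5 and 11.92 in GSK-J4. The margin of Mdm4 was 0.90, or 1.87-fold, and 0.774% of genes reached it. For both genes DMSO and GSK-J5 gave the same value to the 2 decimals deposited, medium lay slightly above them and GSK-J4 well above all. With 1 array for each treatment, the gap between the margins of Mdm2 and Mdm4 has no error to be set against.

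Of the genes that act through phosphatases, one met the rule and one did not. Ccng1 read 12.48 in medium, 12.42 in DMSO, 12.44 in GSK-J5 and 13.14 in GSK-J4, a margin of 0.66 or 1.58-fold. Ppm1d read 11.43 in medium, 11.41 in DMSO, 11.38 in GSK-J5 and 11.70 in GSK-J4. Its margin of 0.27, or 1.21-fold, was the smallest of the 7, and 9.73% of all genes had one as high. The 3 control values of Ppm1d lay within 0.05 of each other. The GSK-J4 array was above them by 5.4 times that range, although by little in fold. Over the 7 genes this ratio ran from 4.8 to 18. The range comes from 3 arrays treated differently, so it does not measure replicate error.

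Trp53inp1 and Phlda3 had the largest margins, 1.20 each, or 2.30-fold, which 0.263% of genes reached. Trp53inp1 read 11.24 in medium, 11.25 in DMSO, 11.18 in GSK-J5 and 12.45 in GSK-J4. Phlda3 read 10.10 in medium, 10.05 in DMSO, 10.30 in GSK-J5 and 11.50 in GSK-J4. These were the only 2 of the 7 that met a 2-fold rule, against 0.571% of all genes. Phlda3 had the widest spread among the controls, 0.25, while the other 6 genes kept within 0.11; the median spread over all genes above the filter was 0.12.

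Zmat3 just missed the rule. It read 10.07 in medium, 9.96 in DMSO, 10.04 in GSK-J5 and 10.62 in GSK-J4, a margin of 0.55 or 1.46-fold, and 2.63% of genes had one as high. A further probe set carries the symbol of Zmat3 together with that of 4930429B21Rik and was left out of the counts. It read 9.10, 8.97 and 9.00 in medium, DMSO and GSK-J5 and 9.50 in GSK-J4, so it too was highest with GSK-J4, with a margin of 0.40.

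**Figure D2:**
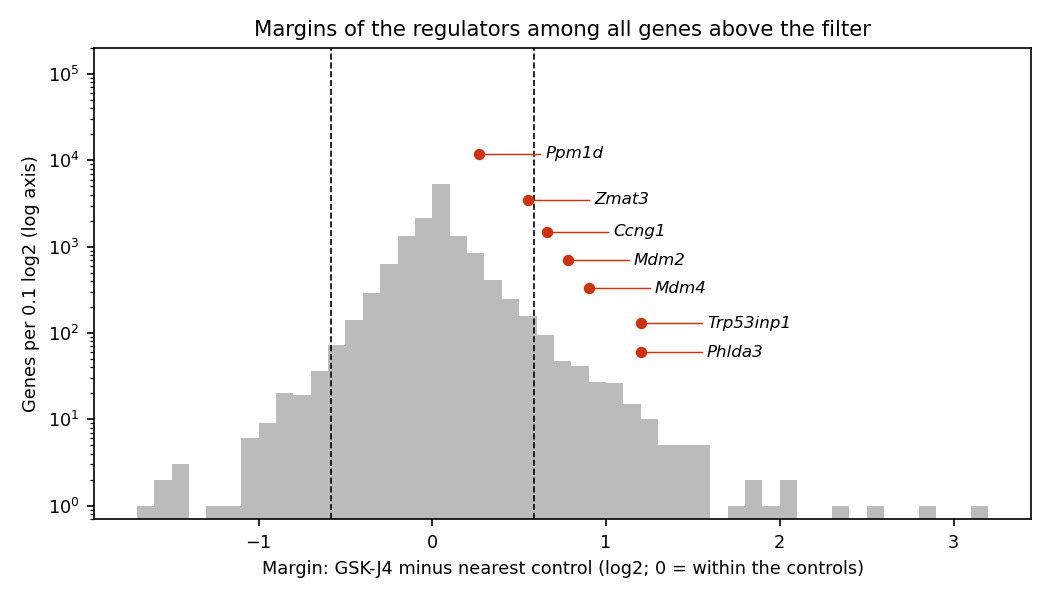
Margins (GSK-J4 minus the nearest control, log2) of the 13314 genes above the filter, as counts per 0.1 on a log axis, with the 7 genes as red points whose height has no meaning; dashed lines mark 1.5-fold, and the bar at 0 includes genes within the range of the controls. From Ppm1d at 0.27 to Trp53inp1 and Phlda3 at 1.20, the 7 genes lie on the right side, 5 of them beyond the line at 0.585.

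The isomers were compared at the same dose and time. With GSK-J4 the 7 transcripts lay above GSK-J5 by 0.32 (Ppm1d) to 1.27 (Trp53inp1), with a median of 0.84, while the median over all 22180 genes was −0.02. Taken by 1.5-fold, 5 of the 7 were higher than with GSK-J5, where 3.28% of genes were. Zmat3 missed this count with a difference of 0.58. No interval can be given for these differences, since each compound had 1 array.

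Against DMSO 6 of the 7 were higher by 1.5-fold, Zmat3 (0.66) now among them, beside 3.89% of all genes. Here Phlda3 had the largest difference, 1.45, and the median was again 0.84. Against medium 5 of the 7 were higher, beside 2.96% of genes, with a median of 0.78. These 3 comparisons share the GSK-J4 array, so they are not independent of one another.

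The control arrays lay close together for these genes. Between GSK-J5 and DMSO 0 of the 7 differed by 1.5-fold in either direction, as did 0.173% of all genes, and the median difference was 0.00. Phlda3 was the exception in size: it read 0.25 higher with GSK-J5 than with DMSO, a difference that 3.70% of genes reached, whereas the other 6 lay between −0.07 and 0.08. Between DMSO and medium 0 of the 7 differed by 1.5-fold, beside 0.158% of genes, and the median was −0.05. With medium, DMSO or GSK-J5 in the place of GSK-J4, the 1.5-fold rule counted 0 of the 7 genes, but it also counted only 1, 3 and 0 of all 13314 genes, so this says nothing particular to the 7.

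**Figure D3:**
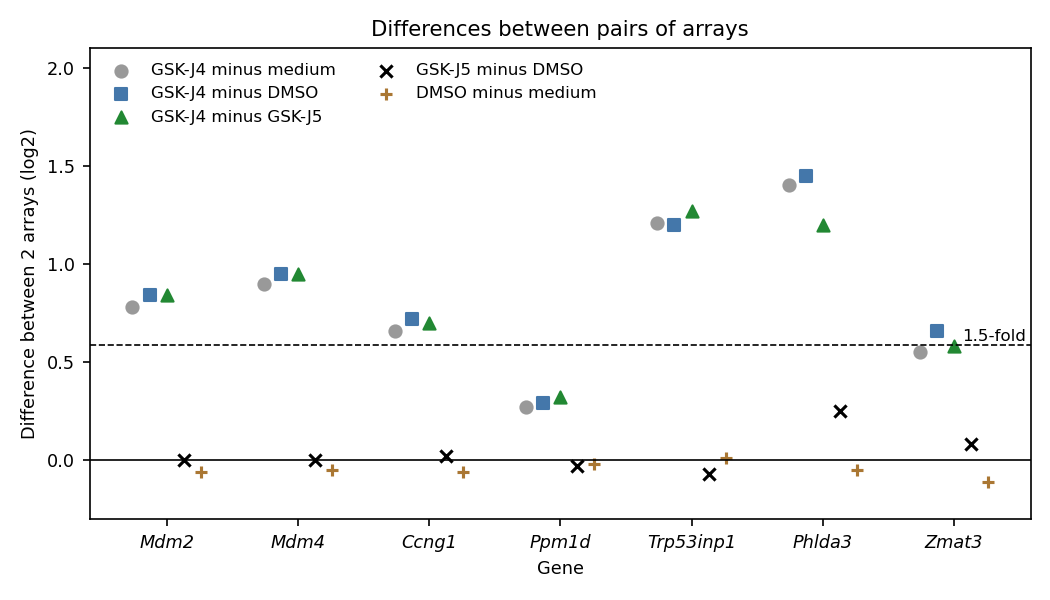
Differences between pairs of arrays (log2) for the 7 genes: GSK-J4 minus each control (filled symbols), GSK-J5 minus DMSO (crosses) and DMSO minus medium (plus signs), with the dashed line at 1.5-fold. The filled symbols run from 0.27 to 1.45, and the differences among controls run from −0.11 (Zmat3, DMSO minus medium) to 0.25 (Phlda3, GSK-J5 minus DMSO).

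Most other p53 targets also read higher with GSK-J4, and over a wider range. Of 36 listed, 31 were measured and 30 passed the filter. By 1.5-fold 13 of these 30 were higher and 0 lower, beside 2.21% and 0.841% of all genes. By any amount 28 of the 30 lay above all controls and 2 below, where 38.0% of all genes lay above. The list was drawn up with earlier results of these arrays known, so its count is no independent evidence. The farthest was Plk2, a polo-like kinase, at 10.40 against 8.44 to 8.56. Btg2, which restrains proliferation, read 10.48 against 8.77 to 8.92. Ephx1, an epoxide hydrolase, read 9.16 against 7.88 to 7.97 and Zfp365, a zinc finger gene, 9.86 against 8.66 to 8.74. At the other end Sesn1, a sestrin, read 9.10 against 9.16 to 9.34 and Tigar, a regulator of glycolysis, 10.00 against 10.01 to 10.16; both were named after their values were seen. Over the 31 the median difference from GSK-J5 was 0.59.

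Genes that regulate p53 without belonging to the group were listed apart by whether they restrain or activate it, and the difference between these lists and the 7 genes was not tested. The role given to each listed gene was not checked here. The 15 measured genes listed as restraining p53 include other ubiquitin ligases, deacetylases and methyltransferases. By the rule 0 of the 15 were higher and 0 lower, beside the 2.21% and 0.841% of all genes. Their median difference from GSK-J5 was −0.05. The largest differences from GSK-J5 belonged to Uchl3, a ubiquitin hydrolase (8.26 against 8.65 to 8.76), and Rchy1, a p53-induced ubiquitin ligase (10.25 against 9.86 to 10.00). Among 19 genes listed as activating p53, including damage kinases and acetyltransferases, 0 were higher and 0 lower, with a median of 0.02. Prkdc, a kinase of DNA end joining, read 10.11 against 9.47 to 9.56 and Atr, a checkpoint kinase, 10.43 against 10.09 to 10.13. The margin of Prkdc, 0.55, equalled that of Zmat3 and was larger than that of Ppm1d. With the medium array left out the margin of Prkdc was 0.60, past the rule.

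Paralogues of the 7 genes and of p53 were mostly close to the controls. Of 18 measured, 16 passed the filter, of which 0 were higher and 1 was lower, beside 2.21% and 0.841% of all genes. That gene was Phlda2, an imprinted paralogue of Phlda3, at 9.70 with GSK-J4, below the controls at 10.35 to 10.37, a margin of −0.65. Ccng2, Trp53inp2 and Trp73 were picked after they were seen. Ccng2, the paralogue of Ccng1, read 7.78 against 7.79 to 7.82, and Trp53inp2 read 8.47 against 8.35 to 8.45. Trp73, a p53 family member, read 7.95 against 7.26 to 7.39, a margin of 0.56 that missed the rule.

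**Figure D4:**
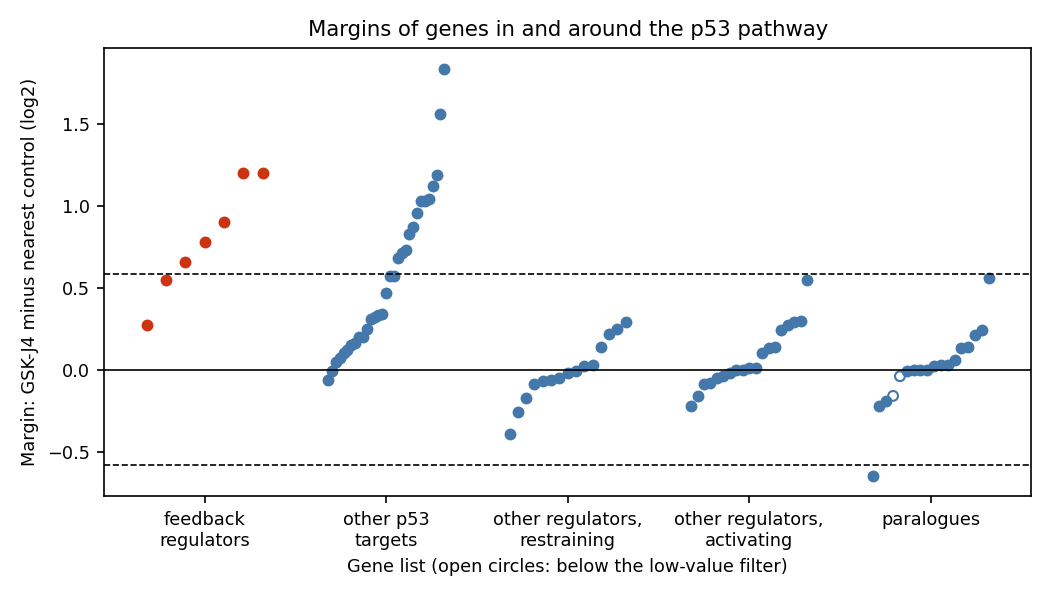
Margins (GSK-J4 minus the nearest control, log2) of the genes in 5 lists, 1 circle for each measured gene in order of size, with dashed lines at 1.5-fold in both directions and open circles for genes below the filter. In the first list 5 of 7 and in the second 13 of 30 lie above the upper line, while in the other 3 lists 0 do and Phlda2, at −0.65, lies below the lower one.

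For each of the 5 genes past the rule, the 2 other genes with the nearest profile were found by the Euclidean distance over the 4 arrays, after the mean of the controls was subtracted. For Mdm2 they were Wscd1 (distance 0.04 on the log2 scale) and St14 (0.04). For Mdm4 they were 2410006H16Rik (0.05) and Rap2b (0.06), and for Ccng1 Stx2 (0.01) and Tbc1d8 (0.02). Trp53inp1 was nearest to Klhl26 (0.05) and 1700007K13Rik (0.07). Phlda3 was nearest to Vegfa (0.08), which like it read higher with GSK-J5 than with DMSO (9.11 against 8.84), and to Eng (0.10). With 4 arrays such likeness rests mainly on the size of the GSK-J4 difference.

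The arrays were checked for the cells they should and should not hold. Array medians were 6.63 to 6.65. Of 14 markers of pluripotent and early epiblast cells, 13 passed the filter. By the rule 3 of these, Fgf5, Pou3f1 and Dnmt3b, were lower with GSK-J4, beside 0.841% of all genes. By any amount 9 of the 14 lay below all controls, 3 above and 2 within. Of the 13 past the filter 8 lay below and 3 above, where 38.0% of all genes lay above. The share of all genes below all controls by any amount was not worked out. The counts of markers below therefore have nothing to be set against. The pluripotency genes Pou5f1, Nanog, Sox2 and Zfp42, picked after they were seen, had margins of −0.05, −0.06, 0 and 0. Of 16 feeder fibroblast markers 10 passed the filter, and 0 of these were higher and 0 lower, beside 2.21% and 0.841% of all genes. By any amount 10 of the 16 lay below all controls, 1 above and 5 within. Of the 10 past the filter 7 lay below and 1 above. Farthest from GSK-J5 among these 10 were Thbs1 (7.06 against 7.46 to 7.54) and Col1a2 (6.45 against 6.66 to 7.03). The mean level of the 16, which takes in genes under the filter, was 7.13 with GSK-J4 against 7.28 to 7.34. Of 8 blood and endothelial markers 3 passed the filter, and these 3 lay above all controls. Of the other markers, 1 lay below all controls and 4 within them. Of the 3, 1, Laptm5, was higher by the rule (8.45 against 6.92 to 7.16), which 2.21% of all genes met. Cd34 read 8.17 against 7.79 to 7.83, and Pecam1 read 11.17 against 10.72 to 10.80. The mean level of the 8 was 7.03 with GSK-J4 against 6.73 to 6.81. That mean includes Laptm5, whose margin of 1.29 was the largest of the 8, with Pecam1 next at 0.37. Ptprc, a marker of blood cells, read 4.37 to 4.51 on all arrays, under the filter level of 6.59. Kdr, Cdh5, Gata1 and Hbb-bh1 did not pass the filter either. Whether blood or endothelial cells were present was not tested. The part of these markers in the differences of the 7 genes was not tested. On bulk arrays a larger share of cells with a transcript and more of it in each cell cannot be told apart.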

How the data were processed

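Expression was measured on 4 arrays, 1 for each treatment, from 100 ng of total RNA. Per the submitters' processing notes, the deposited log2 values came from RMA, run in Expression Console (Affymetrix, version 1.2.1.20); base 2 was inferred from their range (2.20 to 14.48). RMA gives the arrays a common distribution, which would hide a change in total RNA. Scanner files were not used here, so detection was not examined, and 4 arrays allow little precision.

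Of 41345 probe sets, 23521 had 1 symbol in the platform annotation, which can be old, 1814 had several and 16010 were not named there; 0 of the measured genes needed a new symbol in RefSeq. The brightest probe set stood for a gene. Genes with a 4-array mean at or above the 40th percentile (6.59) passed the filter. Differences were judged by size, with percentages over all genes that passed.

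The genes named are the 7, then from each other list up to 4 per direction by margin, or the 2 farthest from GSK-J5 where none was counted, and the 2 nearest profiles. Genes whose count changed in the alternatives are named too. Cd34, Pecam1 and the blood and endothelial markers under the filter were named after their values were seen. Genes and lists were chosen with earlier results of these data known. Alternatives were other filters, scalings, folds and probe set summaries, leaving out each control, and limma 3.58.1 (R 4.3.3) with the 3 controls as replicates. The size rule and limma were tested on simulated data.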

Additional observations from a re-analysis of the deposited data

Results flagged for a closer look

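The probe set that carries the symbols of both Zmat3 and 4930429B21Rik lies outside the counts because it does not name 1 gene. It read 0.40 higher on the log2 scale with GSK-J4 (9.50) than in the nearest control (9.10), a smaller difference than the 0.55 of the probe set that names Zmat3 alone. Which of the transcripts it reads was not tested.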

How the results depend on the processing

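The count of 5 of the 7 genes was also 5 without a filter, with the filter at the 60th percentile, under median centring, quantile normalization and loess, with the median over probe sets, and without each control array in turn. Most of these settings could change the count little or not at all. Each gene has a single probe set that names it alone, and all 7 had passed the filter. Leaving out a control can only keep or raise a margin above the controls. RMA had already given the arrays a common distribution. With the smaller fold tried it was 6, with Zmat3, and 7.17% of all genes met that fold. At 2-fold it was 2, beside 0.571% of all genes. The count was 2 also against GSK-J5, DMSO and medium taken singly, for which no 2-fold share of all genes was worked out. Each margin kept its direction and its side of 1.5-fold in the settings run; that of Phlda3 ran from 1.18 to 1.40, the highest without GSK-J5, and that of Zmat3 from 0.54 to 0.58. The median differences of the 7 genes moved by less than 0.1.

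With limma, taking the 3 controls as replicates of each other with 2 residual degrees of freedom, 7 of 7 were higher (adjusted p from 0.0063 to 0.045), beside 8.22% of genes; this sets differences between the control treatments as the error. Other p53 targets counted went from 13 to 7 at 2-fold, 17 with the smaller fold and 18 with limma, and ranged from 13 to 14 without each control (Psrc1 gained without medium, Dcxr without DMSO). Other regulators and paralogues went from 1, the lower gene Phlda2, to 0 at 2-fold. With the smaller fold they were 4: Prkdc and Trp73 higher, Phlda2 and Uchl3 lower, beside 7.17% of all genes higher. With limma they were 5, Atr also being higher, where limma counted 1095 of all 13314 genes higher and 665 lower. Without each control they ranged from 1 to 2, Prkdc being gained as higher without the medium array. The folds change these counts by construction. The limma counts asked for no fold and took the difference from the mean of the controls, not from the nearest. How much each of these adds to the limma counts was not tested. No paired analysis was possible because each treatment has 1 array.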

Other observations

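Among genes above the filter with a RefSeq promoter window, 28 of 883 with a p53 half-site (3.17%) and 207 of 9573 without one (2.16%) were higher with GSK-J4 by 1.5-fold. The 6 lower genes with a half-site were 0.68% of theirs, and the 74 without one 0.773%. The median difference of GSK-J4 from GSK-J5 was 0.01 in both classes. Half-sites were in the windows of 9 of the 29 other p53 targets that had a window (31.0%). They were in those of 4 of the 14 other genes listed as restraining p53 (28.6%) and 1 of the 18 listed as activating it (5.56%). None of the 13 paralogues had a half-site, beside 9.55% of all genes with a window.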
